A study of Mus musculus with 9 samples.

Results

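Basal cells of the mouse trachea were compared with the columnar cells that lie above them, across all genes on an expression array, with attention to gene families and functions rather than to the markers that separate cell types. The comparison used 6 of the 9 arrays of the series: 3 arrays of cells that carried green fluorescent protein and bound a lectin (GFP+ gate) and 3 arrays of cells with neither mark (columnar gate). All cells came from tracheal epithelium of KRT5-GFP hemizygous transgenic mice, freed by enzyme and by hand dissection and sorted by flow cytometry on GFP and on binding of GSI-A3B isolectin, and the labels name no other treatment. The third gate, which bound the lectin without GFP (lectin-only gate), shared the fit and supplied values for orientation. The series' design text calls the 3 arrays of a gate biological replicates, and the labels do not tie them to single animals, so p-values measure the spread between these samples. Age, sex and strain background are not given in the sources used here. Each array is a bulk measurement of a sorted population, in which fewer cells of a type and less RNA per cell cannot be told apart. Because the keratin 5 promoter drives the reporter, Krt5 checks the sort and nothing more.

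Basal cells sit on the basement membrane of the pseudostratified airway epithelium, anchor it through hemidesmosomes, and act as its stem cells. The columnar cells reach the lumen: ciliated cells move mucus with motile cilia, and club and goblet cells secrete proteins and mucins. Each layer thus relies on its own machinery, such as adhesion to the matrix, the axoneme of the cilium and the secretory pathway, beside the signalling, metabolism and transport that all cells need.

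The gates matched their labels on the defining genes. Krt5 had log2 signals of 13.44, 13.44 and 13.42 on the GFP+ arrays and 6.71, 8.27 and 8.88 on the columnar arrays, a difference of 5.48 ± 0.45 (GFP+ minus columnar, ± limma standard error, as throughout; adjusted p = 5.76e-05). Trp63, the transcription factor that maintains basal cells, read 13.19, 13.05 and 12.93 on the GFP+ arrays and 7.66, 7.29 and 7.92 on the columnar arrays, and Ngfr, a surface receptor of basal cells, read 9.79, 9.11 and 9.84 on the GFP+ arrays and 5.79, 5.47 and 5.90 on the columnar arrays. Foxj1, the master regulator of motile cilia, ran the other way, with 3.72, 4.52 and 4.03 on the GFP+ arrays and 7.18, 7.36 and 7.36 on the columnar arrays. No array of one gate reached an array of the other in any of these genes, although the columnar arrays of Krt5 varied by more than 2 log2 units.

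Lists of markers were used to check what else the gates held. Of 15 basal cell markers 13 were called higher in the GFP+ gate, of 14 ciliated markers 10 were called lower, and of 15 markers of club and other secretory cells 8 were called lower. The mean log2 signal of the ciliated list still lay at 6.07 to 6.62 on the GFP+ arrays, with Dnah5 and Hydin under the background level, against 8.58 to 8.84 on the columnar arrays. Leukocyte markers were somewhat higher in the GFP+ gate, at 5.75 to 6.88 against 5.04 to 5.79, with 6 of 24 called higher and 1 lower, and between 1 and 3 called higher when any of 6 arrays was left out (columnar 1 and 2, lectin-only 1 and 3, GFP+ 2 and 3). Fibroblast markers were at 4.35 to 4.64 against 4.92 to 5.29, with 2 of 14 called higher and 5 lower, 3 lower without any one of the GFP+ arrays. Thyroid follicle markers were brighter and more variable on the columnar arrays (4.62 to 6.68) than on the GFP+ arrays (3.56 to 4.02). Of 6 measured, 2 were called lower and none higher, 1 lower without columnar replicate 3 or GFP+ replicate 2 or 3. Their differences ran from -5.61 to 1.22, with a median of -1.29. Brush cell markers had 3 of 9 called lower (Alox5ap, Dclk1 and Trpm5), at 4.67 to 5.32 against 5.75 to 6.46, with Chat under background in both gates. Submucosal gland markers had 4 of 10 called lower, also without any single array, at 6.95 to 7.43 against 8.21 to 8.80, with Pip, Prol1 and Smgc under background in both. The part that such cells play in any result below was not tested. Median signals of the 6 arrays lay between 4.91 and 5.07. The difference between 3' and 5' probe sets of Gapdh was 1.28 to 1.54 on columnar and 1.32 to 2.07 on GFP+ arrays. For beta actin it was 1.03 to 1.93 on columnar and 1.42 to 2.40 on GFP+ arrays, and both were largest on GFP+ array 3. Correlations across genes, which are not replicates, were 0.985 to 0.989 within the GFP+ gate and 0.946 to 0.953 between the gates.

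Of 18193 genes, 2038 (11.2%) were called, which means an adjusted p under 0.05 in limma and a difference of at least 1 on the log2 scale, or 2-fold. The GFP+ gate had the higher signal in 1069 of them (5.88% of all genes) and the lower signal in 969 (5.33%). These shares are the background for each family below: a family with such shares was called no more often than the array as a whole. Leaving out 1 array at a time gave 849 to 1082 genes higher and 830 to 988 lower. The median difference over all genes was -0.04, and it became -0.15 when each array was centred on its own median, so a family median near 0 has no direction of its own. In 2028 of the called genes, no array of one gate overlapped the other gate, and every called gene named below is among them. The 68 families examined hold 250 of the higher genes and 223 of the lower ones, and 1565 called genes belong to none.

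**Figure D1:**
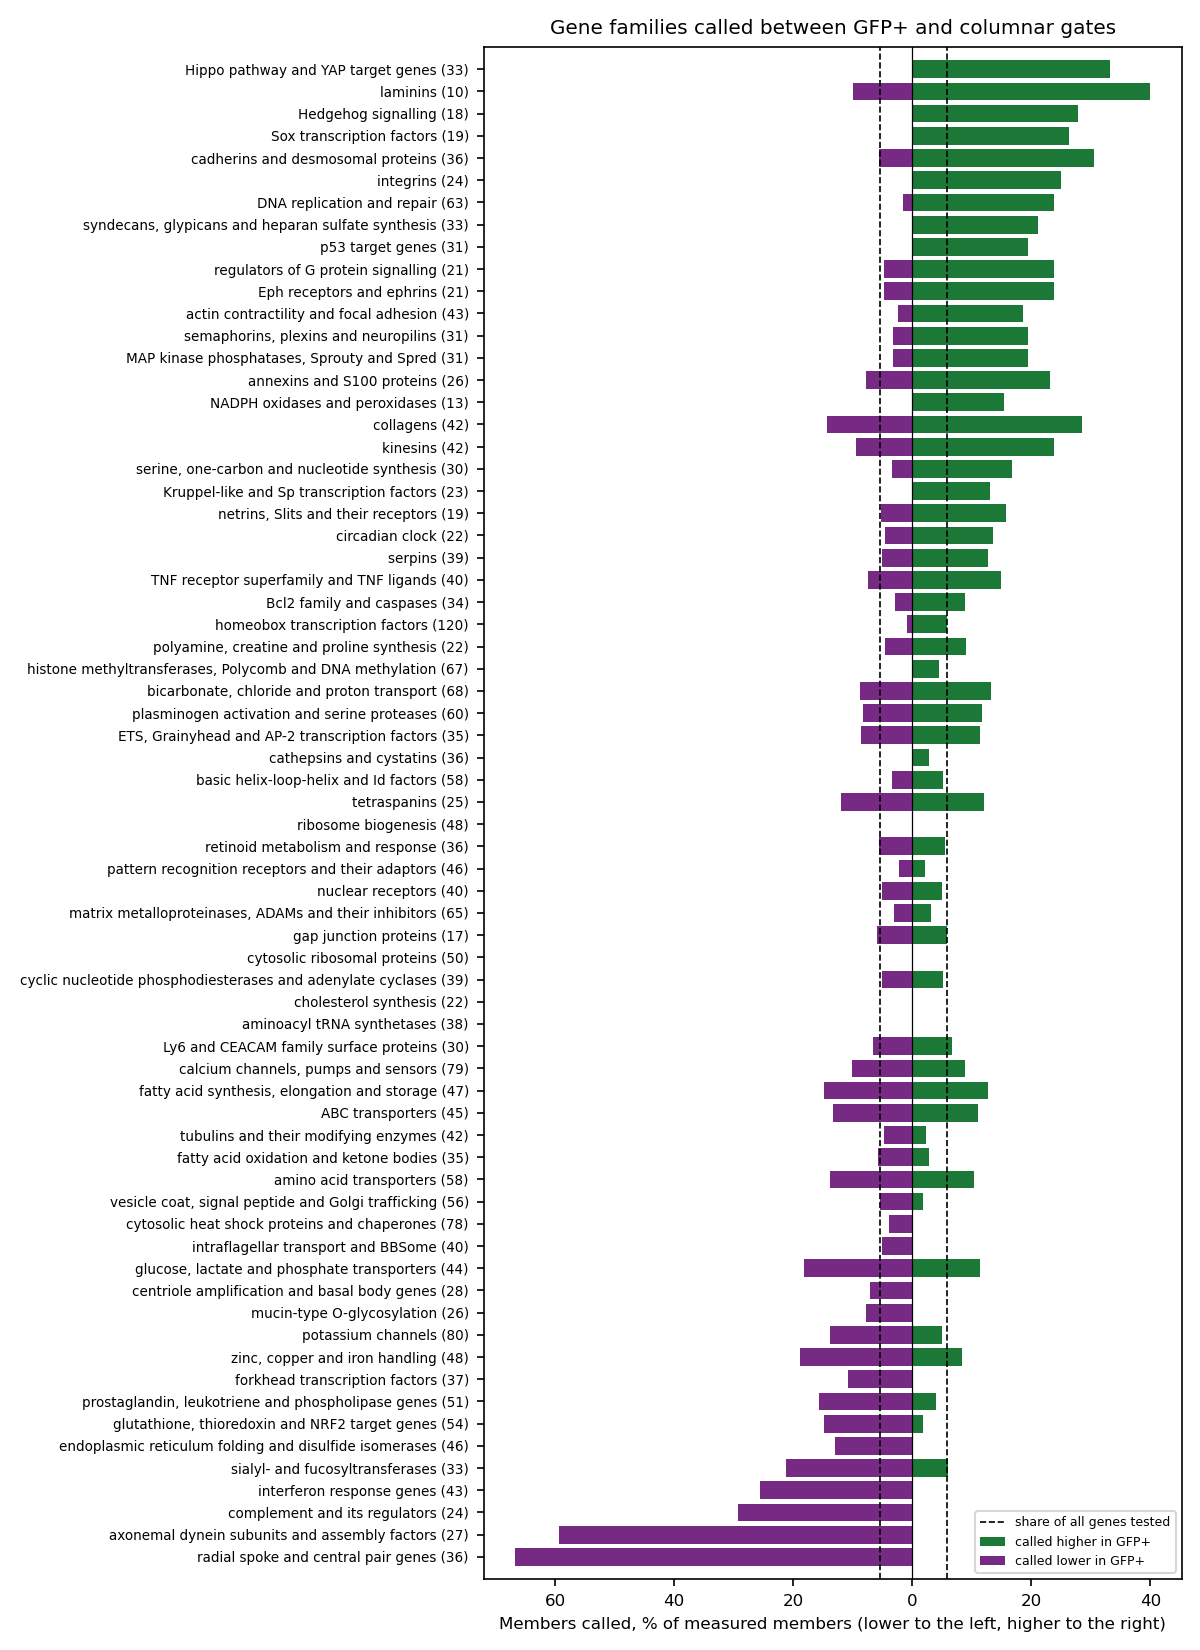
Share of the measured members of each of 68 gene families that were called higher (right) or lower (left) in the GFP+ gate, in percent of members, with the number measured in brackets and dashed lines at the shares of all 18193 genes (5.88% and 5.33%). Hippo, Hedgehog, laminin and integrin genes extend far to the right, radial spoke and axonemal dynein genes far to the left, and ribosomal, cholesterol and tRNA synthetase genes have no bar.

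Several genes of the basement membrane and of the cell's grip on it were higher in the GFP+ gate. Among laminins, the cross-shaped proteins of the basement membrane, 4 of 10 were called higher and 1 lower, Lama4, whose call was lost without GFP+ replicate 1 and with the mean of its probe sets. Lama3 and Lamb3, chains of the laminin that binds hemidesmosomes, differed by 5.25 ± 0.26 and 5.82 ± 0.32. Of 24 integrins, 6 were called higher and none lower in limma, with 8 at an unadjusted p under 0.05. Itgb4, the integrin chain of hemidesmosomes, read 10.91, 10.47 and 10.07 on the GFP+ arrays and 7.62, 7.54 and 7.60 on the columnar arrays, and its partner Itga6 differed by 1.54 ± 0.15 (adjusted p = 0.000146). Both genes are also in the list of basal cell markers used above. The columnar arrays of Itgb4 lay close together, while the GFP+ arrays were more spread and all far above them.

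Collagens split by type. Of 42 measured, 12 were called higher and 6 lower, and the family's median was -0.17. The higher ones included Col17a1, a transmembrane collagen of hemidesmosomes, which read 11.12, 11.53 and 10.22 on the GFP+ arrays and 3.59, 3.97 and 4.31 on the columnar arrays and was among the largest increases of the array. Others were Col7a1, which forms the anchoring fibrils below the epithelium (4.07 ± 0.41), and Col4a2, a chain of the basement membrane network (4.42 ± 0.49). Col25a1, a transmembrane collagen, was under the background level on every columnar array and was at least 8.26-fold higher in the GFP+ gate (adjusted p = 5.51e-05). Its other probe set had a difference of -0.17. The fibril collagens Col1a1, Col1a2 and Col3a1, typical products of fibroblasts, were lower by 3.20 ± 0.49, 3.36 ± 0.51 and 3.88 ± 0.44. These genes are themselves members of the fibroblast marker list given above, so that list is not a separate observation. The part of fibroblasts in this was not tested.

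Several cell-to-cell adhesion molecules were higher. Of 36 cadherins and desmosomal proteins, 11 (30.6%, beside 5.88% of all genes) were called higher and 2 lower. Pkp1, a plaque protein that links desmosomes to keratin, read 12.36, 12.90 and 12.71 on the GFP+ arrays and 8.46, 9.46 and 9.82 on the columnar arrays. The desmosomal cadherin Dsc3 differed by 5.96 ± 0.34, and Cdh13, a cadherin without a cytoplasmic tail, by 4.70 ± 0.41. Dsg1b, another desmosomal cadherin, was under background on every columnar array and at least 3.7-fold higher (adjusted p = 0.00805). Cdh26 was lower by 4.04 ± 0.38, and Cdh17, under background on every GFP+ array, was at least 2.51-fold lower (adjusted p = 0.00528).

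Heparan sulfate proteoglycans hold growth factors at the cell surface. Of 33 genes for their core proteins and sulfation enzymes, 7 were called higher and none lower in limma, and 13 of the 33 had an unadjusted p under 0.05. The glypican Gpc2 read 7.96, 8.45 and 8.17 on the GFP+ arrays and 4.07, 3.59 and 5.12 on the columnar arrays, a difference of 3.93 ± 0.36 (adjusted p = 0.000102). Its lowest GFP+ array was far above its highest columnar array, and the lectin-only arrays (mean 8.09 ± 0.29 SD, n = 3) were at the GFP+ level. Gpc3, a second glypican, differed by 3.12 ± 0.49, and Hs6st2, which adds 6-O-sulfate to the chains, read 9.03, 8.43 and 8.74 on the GFP+ arrays and 4.94, 5.24 and 5.69 on the columnar arrays.

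Receptors and ligands known for guiding growing axons made up a further part of the surface difference. Among Eph receptors and ephrins, which signal between touching cells, 5 of 21 were called higher and 1 lower, but 3 higher without columnar replicate 2 or with the mean of all probe sets. Ephb1 was under background on every columnar array and at least 7.04-fold higher in the GFP+ gate (adjusted p = 4.56e-05), Ephb4 differed by 1.89 ± 0.33, and the ligand Efna3 by 1.51 ± 0.23. Of 31 semaphorins, plexins and neuropilins, 6 were called higher and 1 lower. Sema6d, a transmembrane semaphorin, read 8.84, 8.57 and 8.64 on the GFP+ arrays and 3.61, 5.05 and 5.16 on the columnar arrays, and the receptor Plxna2 differed by 2.43 ± 0.25. Plxnd1, a receptor of the same class, was the lower one (-2.28 ± 0.27). Of 19 netrins, Slits and their receptors, 3 were called higher, among them the netrin receptors Unc5a (3.60 ± 0.26) and Unc5b (2.22 ± 0.26), and 1 lower, Ntn5, whose call was lost without lectin-only replicate 1 or any one of the GFP+ arrays.

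**Figure D2:**
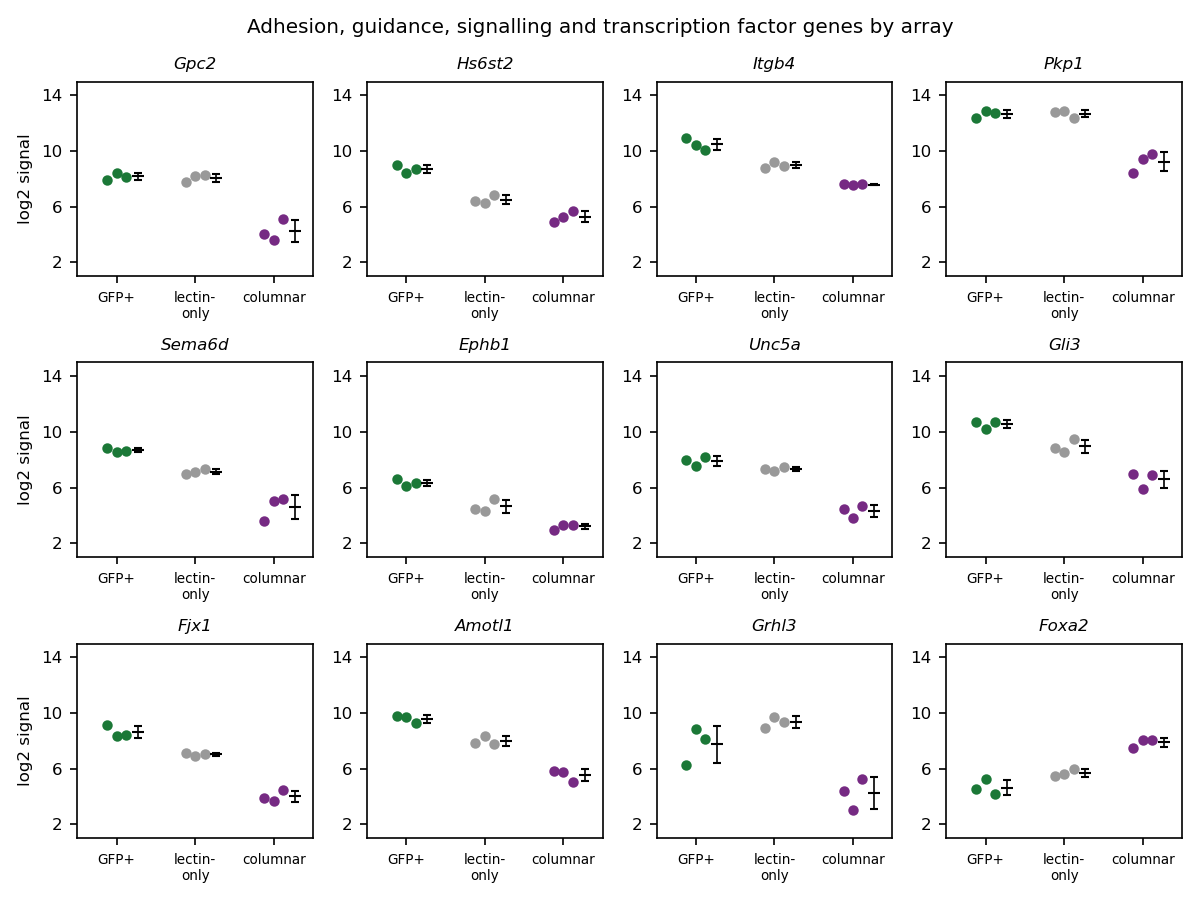
Log2 signal on each array (points, replicates 1 to 3 from left to right) with the mean and SD of 3 arrays (black), for 12 genes in the GFP+, lectin-only and columnar gates. In 11 genes every GFP+ array lies above every columnar array, and in Foxa2 every GFP+ array lies below them.

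Genes for contractile filaments and focal adhesions were called higher in 8 of 43 cases (5 with the mean of all probe sets) and lower in 1. The lower count was 2 when the third lectin-only or the first GFP+ array was left out, and also 2 under either other scaling. Tpm2, a tropomyosin of actin cables, differed by 5.76 ± 0.41, the adhesion adaptors Tns1 and Tns4 by 5.14 ± 0.52 and 4.94 ± 0.34, and Mylk, the kinase that switches on myosin, by 3.79 ± 0.63. Markers of smooth muscle and myoepithelial cells lay at 4.92 to 5.35 on GFP+ and 4.12 to 4.20 on columnar arrays, with 3 of 10 called higher, while Actg2 and Cnn1 were under background on every array of both gates. These markers share Acta2, Actg2, Cnn1, Myh11, Mylk and Tagln with the contractile list, so they are not a separate observation. The part of smooth muscle or myoepithelial cells in this was not tested. Actn2, an actin crosslinker of muscle, was lower by 2.40 ± 0.25.

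Among Hippo pathway genes and target genes of its effector YAP, 11 of 33 (33.3%) were called higher and none lower, with 14 of the 33 at an unadjusted p under 0.05 in limma. This pathway restrains YAP, a growth-promoting co-activator, in response to cell contact and shape. Fjx1, a secreted relative of the fly pathway gene four-jointed, read 9.17, 8.36 and 8.39 on the GFP+ arrays and 3.92, 3.71 and 4.44 on the columnar arrays, and Amotl1, a junction protein that binds YAP, read 9.79, 9.73 and 9.25 on the GFP+ arrays and 5.83, 5.75 and 5.06 on the columnar arrays. In both genes the GFP+ and columnar arrays were several log2 units apart. Axl, a receptor kinase known as a YAP target, differed by 5.11 ± 0.56, and Ajuba, an adaptor that restrains the pathway's kinases, by 2.73 ± 0.29. The other probe set of Axl had a difference of -0.02.

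Called genes of the Hedgehog pathway went the same way, with 5 of 18 called higher, none lower and 8 at an unadjusted p under 0.05 in limma. The list includes genes that restrain the pathway, such as Gpr161 below, and the activity of the pathway was not tested. For the transcription factor Gli3 the GFP+ arrays averaged 10.55 ± 0.29 and the columnar arrays 6.60 ± 0.62 (SD, n = 3 each), a difference of 3.94 ± 0.34. Gli2, its relative, was under background on the columnar arrays and at least 3.94-fold higher in the GFP+ gate (adjusted p = 0.00244). Kif7, the kinesin that organises Gli proteins at the tip of the primary cilium, differed by 1.99 ± 0.42, and the receptor Gpr161, which holds the pathway down when no ligand is bound, by 2.02 ± 0.40, a call that was lost with the mean of all probe sets of the gene.

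Several brakes on receptor signalling were also higher. Of 31 MAP kinase phosphatases and Sprouty or Spred genes, which limit growth factor signals, 6 were called higher and 1 lower, Dusp18, which lost its call when columnar array 1 or 3 or GFP+ array 1 or 2 was left out. Spry4 and Spry1 differed by 2.35 ± 0.33 and 1.54 ± 0.22, and the phosphatase Dusp7 by 2.08 ± 0.23. Of 21 regulators of G protein signalling, 5 were called higher and 1 lower. Rgs12 read 10.25, 9.63 and 10.05 on the GFP+ arrays and 4.93, 5.50 and 6.31 on the columnar arrays, and Rgs10 differed by 2.94 ± 0.42. Rgs10 and Rgs1 (1.89 ± 0.40) are also known from leukocytes, whose markers moved in the same direction, and the lectin-only arrays, with the brightest leukocyte markers, averaged 10.01 ± 0.23 for Rgs1 against 6.40 ± 0.42 on the GFP+ arrays (SD, n = 3 each). The part of leukocytes in this was not tested. The lower gene, Rgs13, lost its call when any one columnar array, the first lectin-only array, or GFP+ array 1 or 2 was left out.

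Genes induced by p53, which slow growth under stress, were called higher in 6 of 31 cases and lower in none, with 9 at an unadjusted p under 0.05 in limma. The list counts Trp63, a relative of p53 already used to check the gate, among the 6. Phlda3, an inhibitor of the kinase Akt, differed by 3.04 ± 0.31, Sesn1, which restrains growth signals through mTOR, by 2.04 ± 0.33, and Sfn, an epithelial 14-3-3 protein, by 1.46 ± 0.27.

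Transcription factor families differed in how far they moved. Forkhead factors, several of which direct columnar fates, were called lower in 4 of 37 cases and higher in none, with 10 at an unadjusted p under 0.05 in limma. Besides Foxj1 these were Foxa2, which read 4.55, 5.24 and 4.15 on the GFP+ arrays and 7.52, 8.10 and 8.04 on the columnar arrays, Foxa3 (-3.91 ± 0.58) and Foxn4, which acts in multiciliated cells (-2.23 ± 0.29). The GFP+ arrays of Foxa2 were all under the columnar ones, with the lectin-only arrays between them. Of 120 homeobox factors, 7 (5.83%) were called higher, near the share of all genes, and 1 (0.833%) was called lower, below the 5.33% of all genes. Tgif2, a repressor in TGF-beta signalling, read 8.20, 8.33 and 7.40 on the GFP+ arrays and 5.47, 4.49 and 6.18 on the columnar arrays, and Barx2 and Pbx3 differed by 2.43 ± 0.22 and 2.10 ± 0.44. Leaving out columnar array 1 or GFP+ array 3 left 4 homeobox genes higher, and the lower one, Prrx2, lost its call when columnar array 2 or 3 or GFP+ array 1 or 3 was left out.

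Sox factors had 5 of 19 genes called higher, but 2 or 3 when columnar array 1 or 2 or GFP+ array 2 or 3 was left out, and 3 with arrays centred or with either other choice of probe sets. Sox15, known from stratified epithelia, kept its call throughout (4.82 ± 0.19), as did Sox7 (2.47 ± 0.50). Among ETS, Grainyhead and AP-2 factors, 4 of 35 were called higher (2 without GFP+ replicate 1) and 3 lower (1 with the mean of all probe sets). Grhl3, a factor of barrier formation in epidermis, read 6.27, 8.85 and 8.11 on the GFP+ arrays and 4.42, 3.01 and 5.29 on the columnar arrays. Replicate 1 was the lowest GFP+ array and replicate 2 the lowest columnar array, and the lectin-only arrays (mean 9.35 ± 0.41 SD, n = 3) were above all of the GFP+ arrays. Tfap2e was at least 4.84-fold higher (adjusted p = 0.000348), and Spdef, a regulator of goblet cells, was lower by 2.36 ± 0.27.

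Other regulators moved singly. Myc, a driver of growth and biosynthesis, differed by 3.51 ± 0.27, and Ascl2, a basic helix-loop-helix factor of intestinal stem cells, by 2.23 ± 0.32. Hlf, a clock-controlled factor, read 10.16, 9.28 and 10.09 on the GFP+ arrays and 6.19, 4.02 and 5.61 on the columnar arrays, while Arntl2, a clock subunit, differed by 2.18 ± 0.17. Among 40 nuclear receptors, 2 were called higher and 2 lower, close to the background. Ppara, a sensor of fatty acids, was higher (2.43 ± 0.18) and Esrrg, an orphan receptor of oxidative cells, was lower (-3.13 ± 0.54), while the other two calls, Ppard and Rora, were each lost when any columnar array or GFP+ array 2 or 3 was left out, and Ppard also without the first lectin-only array.

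Most genes of the ciliary axoneme fell, while few of those that build any cilium were called. Of 36 radial spoke and central pair genes, 24 (66.7%) were called lower and none higher, with a median of -2.32. Of 27 axonemal dynein subunits and assembly factors, 16 (59.3%) were called lower and none higher, with a median of -1.83. In limma, 29 and 20 of these genes had an unadjusted p under 0.05. Drc1, part of the link that keeps sliding microtubules in register, read 4.02, 3.93 and 5.15 on the GFP+ arrays and 8.41, 8.41 and 8.73 on the columnar arrays. Ak7 and Spag6l, an adenylate kinase and a central pair protein, differed by -4.36 ± 0.44 and -4.36 ± 0.61, and the dynein assembly factors Lrrc6 and Zmynd10 by -4.54 ± 0.85 and -3.54 ± 0.45.

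Intraflagellar transport carries cargo in primary and motile cilia alike. Here 2 of 40 transport and BBSome genes (5.0%, beside 5.33% of all genes) were called lower and none higher. Their median was -0.40, with 33 of 40 below 0 and 14 at an unadjusted p under 0.05 in limma. The 2 called genes were Dynlrb2, a dynein light chain (-4.56 ± 0.75), and Kif3b, whose call was lost without columnar replicate 1. Genes for centrioles and basal bodies had 2 of 28 called lower and none higher, with a median of -0.05 and 3 at an unadjusted p under 0.05. The called genes were Deup1, which builds the platform on which multiciliated cells make centrioles (-3.61 ± 0.48), and Foxn4. Mcidas, Gmnc, Ccdc78 and Fam92b of this list were not measured. Kinesins went both ways, with 10 of 42 called higher and 4 lower. Motors of the mitotic spindle were higher (Kif11 by 1.87 ± 0.29, Kif23 by 1.84 ± 0.25 and Kifc1 by 2.15 ± 0.31), and kinesins of motile cilia were lower (Kif9 by 1.66 ± 0.25 and Kif6 by 1.75 ± 0.27). The call of Kif6 was lost with the mean of all probe sets.

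**Figure D3:**
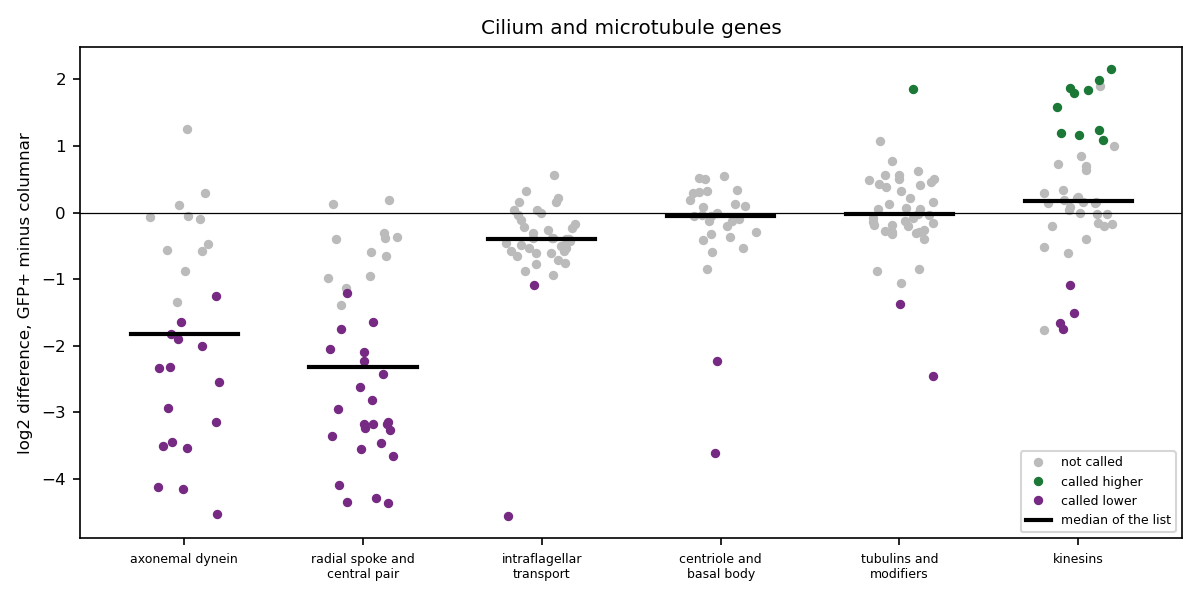
Log2 difference (GFP+ minus columnar) of each measured gene in 6 lists of cilium and microtubule genes, with called genes in colour and the median of each list as a black bar. Axonemal dynein and radial spoke genes reach below -4, while the medians of transport, centriole, tubulin and kinesin genes lie between -0.40 and 0.17.

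RFX factors drive cilium genes through a site with the half-site GTTGCCA, so that sequence was searched for on both strands of RefSeq promoters (GRCm38.p6), windows of 300 bases that end shortly after each gene's start. Of the 42 genes called lower in the lists of axonemal dynein, radial spoke and transport genes, 36 had a promoter there. A gene was counted if any of its windows matched. The half-site was found for 5 of these 36 genes (13.9%), against 715 of 14452 genes with a promoter (4.95%). The 5 genes were Dnaaf4, Drc1, Hydin, Tekt1 and Zmynd10. The promoters of Drc1 (chr5:30281143-30281442, plus strand) and Tekt1, a filament protein of ciliary microtubules (lower by 3.56 ± 0.33; chr11:72361833-72362132, minus strand), are shown with the half-site in capitals, which reads on the opposite strand in Drc1:
Drc1: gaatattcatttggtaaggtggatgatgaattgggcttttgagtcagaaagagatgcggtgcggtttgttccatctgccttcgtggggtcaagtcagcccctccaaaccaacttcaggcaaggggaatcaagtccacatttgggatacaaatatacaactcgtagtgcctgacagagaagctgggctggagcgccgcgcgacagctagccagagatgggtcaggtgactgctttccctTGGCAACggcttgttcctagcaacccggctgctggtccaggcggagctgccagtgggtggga
Tekt1: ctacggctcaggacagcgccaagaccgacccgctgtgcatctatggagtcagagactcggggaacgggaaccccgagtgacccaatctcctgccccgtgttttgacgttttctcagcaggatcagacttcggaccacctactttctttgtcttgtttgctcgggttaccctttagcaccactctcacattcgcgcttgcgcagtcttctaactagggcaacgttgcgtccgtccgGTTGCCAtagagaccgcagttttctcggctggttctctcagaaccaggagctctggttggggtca
In both windows the match lies just before the gene's start. Of the 30 largest increases, 20 genes had a promoter. The same search found the AP-1 site TGANTCA for 1 of these 20 genes (5.0%), against 7.54% of all genes with a promoter. GGAATG, the core of TEAD sites, was found for 4 of the 20, against 15.3% of all. Of the 36 lower cilium genes with a promoter, 4 (11.1%) held the AP-1 site there, against 7.54% of all. GGAATG was in 4 of them (11.1% against 15.3%) and the E-box CACGTG in 3 (8.33% against 10.2%). Among the largest increases, the RFX half-site and the E-box were each found for 1 of the 20 genes. Enrichment was not tested for any of these motifs, and the counts are small. A match describes letters in these windows and is not evidence of binding.

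The glycan machinery of the secretory pathway was lower in part. Of 33 sialyl- and fucosyltransferases, which cap the sugar chains of mucins and surface proteins, 2 were called higher and 7 (21.2%) lower. St6gal1, which adds sialic acid to N-linked chains, read 3.84, 4.60 and 5.46 on the GFP+ arrays and 8.94, 8.86 and 9.28 on the columnar arrays. Fut2, which makes the H antigen of secretions, read 4.16, 4.99 and 4.14 on the GFP+ arrays and 7.85, 7.39 and 8.12 on the columnar arrays, Fut9 differed by -3.29 ± 0.67, and St3gal6 by -2.97 ± 0.26. Fut4, another fucosyltransferase, went the other way (2.55 ± 0.44). All 3 GFP+ arrays were under all columnar arrays for St6gal1 and Fut2, and above them for Fut4. The enzymes that start and extend mucin-type O-glycans had 2 of 26 (7.69%) called lower and none higher, with 12 at an unadjusted p under 0.05 in limma. Their median was -0.43, with 20 of 26 below 0. For the sialyl- and fucosyltransferases the median was -0.18, with 22 of 33 below 0. Of the 2 lower O-glycan genes, Galnt6 lost its call when columnar array 2 or 3 or GFP+ array 1 or 3 was left out.

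Chaperones and disulfide isomerases of the endoplasmic reticulum were lower in 6 of 46 cases and higher in none, with 18 at an unadjusted p under 0.05 in limma. Agr3, an isomerase-like protein of secretory and ciliated cells, differed by -3.98 ± 0.33, and Creb3l1, a membrane-bound factor that expands secretory capacity, by -3.10 ± 0.19. Ern2, the stress sensor of mucous cells, differed by -1.71 ± 0.26. Of 56 genes for vesicle coats, signal peptides and Golgi traffic, 1 was called higher and 3 lower (5 without columnar replicate 3), among them Kdelr3, which returns escaped chaperones (-2.11 ± 0.18). The higher gene, Sytl1, lost its call when columnar array 1 or GFP+ array 2 or 3 was left out. Secretory and submucosal gland markers were lower in the GFP+ gate too, and their part in these results was not tested.

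Lipid genes moved in both directions. Of 47 genes for fatty acid synthesis, elongation and storage, 6 were called higher and 7 lower. Of the 11 genes of the Fads desaturase and Elovl elongase families in the list, a subgroup picked after the values were seen, 5 were called higher, 1 was called lower and 5 were not called. Fads1, which makes polyunsaturated fatty acids, read 10.24, 9.66 and 10.09 on the GFP+ arrays and 7.07, 6.62 and 6.59 on the columnar arrays, Fads2 differed by 2.94 ± 0.27, and the elongases Elovl6 by 2.54 ± 0.32 and Elovl7 by 3.43 ± 0.71. Fads6, of the same family as Fads1, was lower by 1.71 ± 0.34. Also lower were Cd36, a fatty acid uptake protein (-2.13 ± 0.21), Plin5, a lipid droplet coat (-3.24 ± 0.19), and Acss2, which activates acetate (-2.16 ± 0.40). Acox2, which oxidises branched fatty acids and bile acid precursors, was lower by 3.32 ± 0.35. None of 22 cholesterol synthesis genes was called in limma, their median was -0.33, and 6 had an unadjusted p under 0.05.

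Genes for lipid mediators that were called were mostly lower, with 8 of 51 prostaglandin, leukotriene and phospholipase genes lower and 2 higher, a number that varied between 1 and 4 with columnar array 1 or 3 or any GFP+ array left out. Alox15, a lipoxygenase, differed by -3.86 ± 0.38, and Alox5ap, which feeds leukotriene synthesis and is also 1 of the brush cell markers that were lower, by -2.58 ± 0.42. Ptgfr, the receptor for prostaglandin F, read 3.44, 3.69 and 4.08 on the GFP+ arrays and 7.06, 7.81 and 7.74 on the columnar arrays. In the retinoid pathway 2 of 36 genes were called each way, close to the shares of all genes. Cyp26b1, which destroys retinoic acid, was higher (4.08 ± 0.27), and Rdh10, which makes its precursor, was lower (-1.82 ± 0.25). Rdh12, a retinal reductase, was higher (2.90 ± 0.23) and Rbp4, the retinol carrier, lower (-3.18 ± 0.21). Leaving out columnar replicate 3 or GFP+ replicate 1 raised the number of higher retinoid genes to 5 and 6, respectively.

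Serine and one-carbon metabolism supplies carbon for nucleotides. A list of these genes together with those of nucleotide synthesis had 5 of 30 called higher and 1 lower. Phgdh, the entry enzyme of serine synthesis, read 10.70, 9.92 and 10.75 on the GFP+ arrays and 5.89, 7.18 and 7.90 on the columnar arrays. All GFP+ arrays stood apart from all columnar arrays. Mthfd1 and Shmt2, folate enzymes of the cytosol and the mitochondrion, differed by 1.67 ± 0.24 and 1.59 ± 0.28. Aldh1l1, which removes folate-bound carbon from the pool, was the lower gene (-1.99 ± 0.24). Glutathione, thioredoxin and NRF2 target genes ran the other way, with 1 of 54 called higher and 8 lower, 5 without GFP+ replicate 3. Gstp3 and Gstm6, glutathione transferases, differed by -3.15 ± 0.32 and -2.22 ± 0.25, Gpx3, a secreted peroxidase, by -2.26 ± 0.35, and Ggt5, which cleaves glutathione conjugates, was the higher gene (3.62 ± 0.35).

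**Figure D4:**
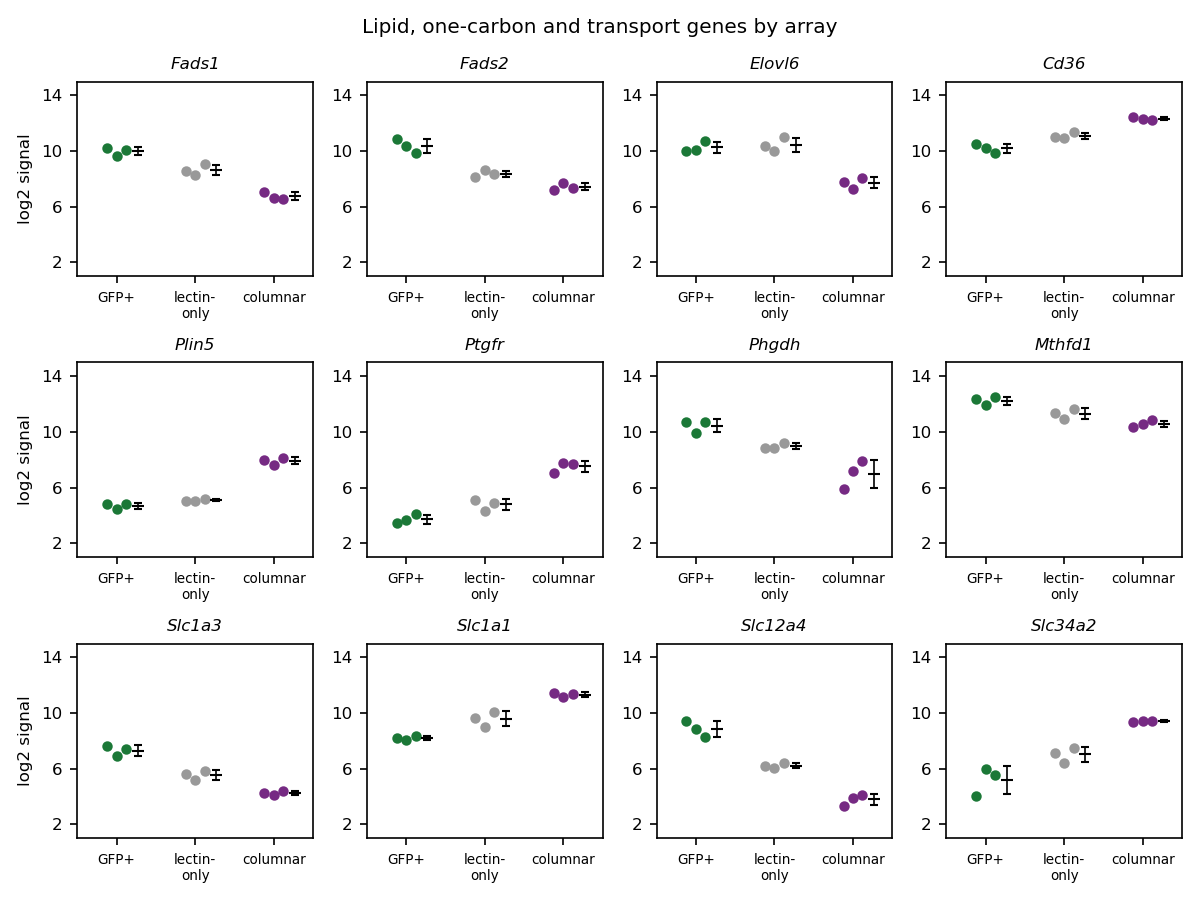
Log2 signal on each array (points, replicates 1 to 3 from left to right) with the mean and SD of 3 arrays (black), for 12 genes of lipid and one-carbon metabolism and of transport in the 3 gates. In Fads1, Fads2, Elovl6, Phgdh, Mthfd1, Slc1a3 and Slc12a4 the GFP+ arrays lie above the columnar arrays, and in the other 5 genes below them.

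Transporter families held genes that moved in both directions. Of 58 amino acid transporters, 6 were called higher and 8 lower. The glutamate transporters split, with Slc1a3 at 7.62, 6.89 and 7.40 on the GFP+ arrays and 4.23, 4.13 and 4.39 on the columnar arrays, and Slc1a1 at 8.18, 8.06 and 8.37 on the GFP+ arrays and 11.48, 11.16 and 11.36 on the columnar arrays. Slc1a3 was thus brighter in the GFP+ gate (3.05 ± 0.24) and Slc1a1 in the columnar gate (-3.13 ± 0.26), although the call of Slc1a3 was lost with the mean of its probe sets. Slc7a2, a carrier of cationic amino acids, and Slc38a1, of neutral ones, were lower by 2.59 ± 0.38 and 2.47 ± 0.18. Of 44 glucose, lactate and phosphate transporters, 5 were called higher and 8 (18.2%) lower: the urate carrier Slc2a9 and Slc16a9 of the monocarboxylate carrier family differed by 2.31 ± 0.36 and 3.39 ± 0.62, and Slc34a2, the sodium phosphate carrier of lung epithelium, by -4.22 ± 0.46.

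Chloride, bicarbonate and proton transport had 9 of 68 genes called higher and 6 lower. Slc12a4, a potassium chloride cotransporter that regulates cell volume, read 9.43, 8.83 and 8.26 on the GFP+ arrays and 3.34, 3.89 and 4.14 on the columnar arrays, and Clca2, a protein of stratified epithelia linked to chloride conductance, differed by 4.88 ± 0.44. Slc4a5, a sodium bicarbonate cotransporter, and Slc9a7, a proton exchanger of the Golgi, were lower by 4.31 ± 0.43 and 2.61 ± 0.23. Potassium channels were called lower in 11 of 80 cases (13.8%) and higher in 4. Kcnh1 was at least 22.2-fold higher in the GFP+ gate (adjusted p = 1.05e-05) and Kcnq5 differed by 4.06 ± 0.43, whereas Kcnk2, Kcnn4 and Kcnj10 were lower by 3.67 ± 0.36, 3.16 ± 0.37 and 3.07 ± 0.50. Calcium genes had 7 of 79 called higher and 8 lower, 5 lower when columnar array 2 or 3 or the second GFP+ array was left out. Camk4, a calcium-activated kinase, was at least 15.6-fold higher (adjusted p = 0.000126), Cacna2d1, a channel subunit, differed by 4.77 ± 0.37, and Calml4, a calmodulin-like protein of microvilli, by -4.60 ± 0.52.

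Metal and lipid export genes also differed. Of 48 genes for zinc, copper and iron, 4 were called higher and 9 (18.8%) lower. Heph, a copper enzyme that oxidises iron for export, differed by 4.13 ± 0.28, and the zinc importers Slc39a8 and Slc39a4 were lower by 2.98 ± 0.37 and 1.62 ± 0.16. Of 45 ABC transporters, 5 were called higher (3 without columnar replicate 1) and 6 lower. The cholesterol exporters Abca1 and Abcg1 differed by 2.97 ± 0.39 and 3.32 ± 0.60. Abcb1b, a drug exporter, was at least 6.93-fold higher (adjusted p = 7.07e-05), and Abca13 was lower by 4.05 ± 0.27.

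Several defence genes were lower in the GFP+ gate, while an oxidase was higher. Of 43 interferon response genes, 11 (25.6%) were called lower and none higher, with a median of -0.62 and 26 at an unadjusted p under 0.05 in limma. The count was 7 without columnar replicate 1 and 18 with arrays centred. Oas2, a sensor of viral RNA, read 6.28, 7.21 and 6.59 on the GFP+ arrays and 9.70, 9.78 and 9.65 on the columnar arrays. Oas3, a related sensor, read 5.28, 3.56 and 5.04 on the GFP+ arrays and 8.29, 7.43 and 7.66 on the columnar arrays. No GFP+ array reached a columnar one in either gene. Complement genes were called lower in 7 of 24 cases (29.2%) and higher in none, with 9 at an unadjusted p under 0.05: Cfb, a protease component of the alternative pathway, read 5.74, 7.08 and 6.15 on the GFP+ arrays and 9.95, 9.79 and 9.94 on the columnar arrays, and C1ra, a protease of the classical pathway, and Cd55, which shields cells from complement, differed by -1.73 ± 0.27 and -1.94 ± 0.22. The complement list shares C1qa, C1qb and C1qc, none of them called, with the leukocyte markers. The largest difference in the complement list, 2.33, belonged to a C1q gene, and 9 of the 24 complement genes lay above 0. The part of leukocytes or of secretory cells in these counts was not tested.

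Duox1, an oxidase that makes hydrogen peroxide at the surface of epithelia, was under background on the columnar arrays and at least 20.8-fold higher in the GFP+ gate (adjusted p = 4.94e-06). Duoxa1, the partner that brings it to the surface and lies next to it in the genome, read 9.34, 9.93 and 10.84 on the GFP+ arrays and 3.44, 4.39 and 5.09 on the columnar arrays. These were the only 2 of 13 NADPH oxidase and peroxidase genes called higher, and none was called lower in limma, with 5 at an unadjusted p under 0.05.

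**Figure D5:**
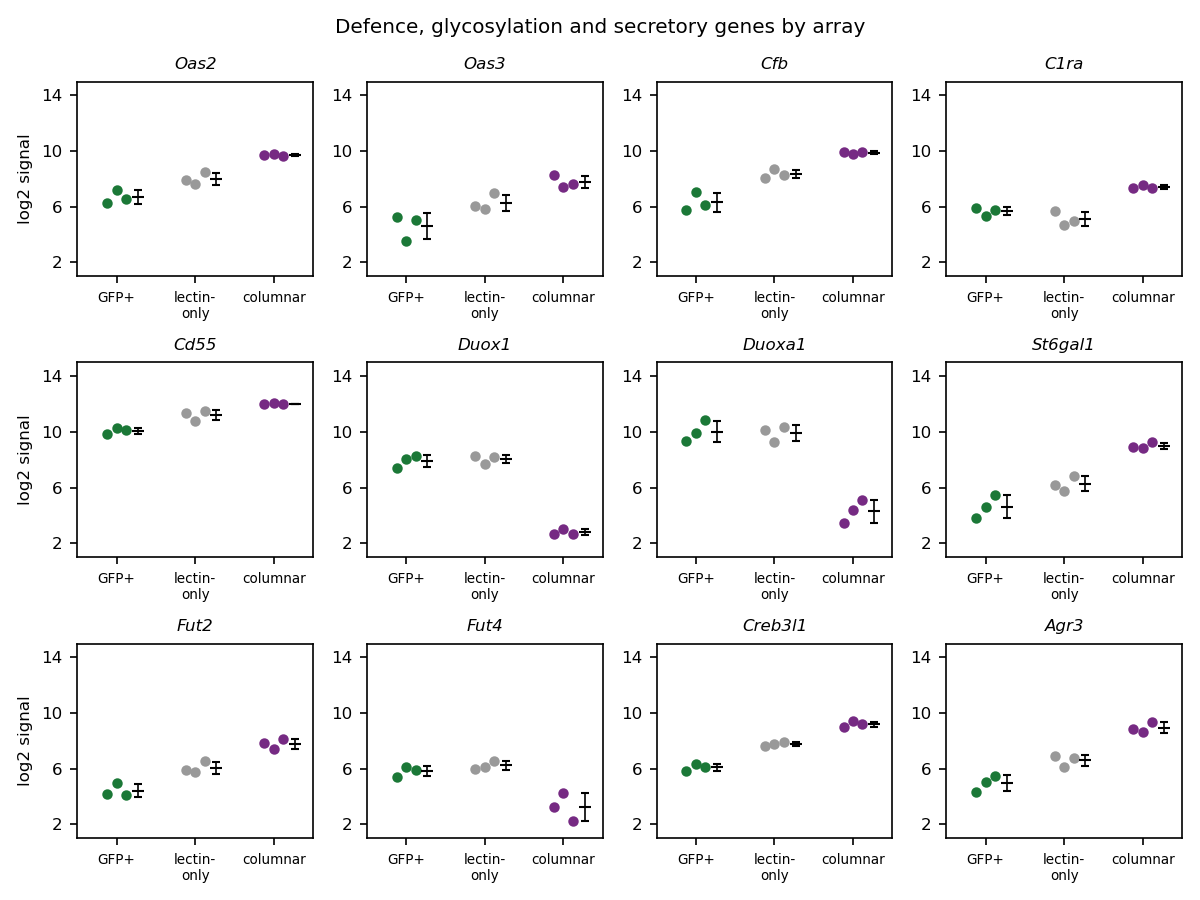
Log2 signal on each array (points, replicates 1 to 3 from left to right) with the mean and SD of 3 arrays (black), for 12 genes of defence, glycosylation and the secretory pathway in the 3 gates. Duox1, Duoxa1 and Fut4 are higher on every GFP+ array than on every columnar array, and the other 9 genes are lower.

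Extracellular proteases and their inhibitors held large single changes in both directions. Of 65 matrix metalloproteinase, ADAM and inhibitor genes, 2 were called higher (1 with the mean of all probe sets) and 2 lower, 4 lower without columnar replicate 2. Adamts1, which cuts proteoglycans, read 9.96, 10.26 and 9.78 on the GFP+ arrays and 5.17, 5.28 and 5.05 on the columnar arrays, and Timp4, an inhibitor of metalloproteinases, read 2.50, 3.14 and 3.72 on the GFP+ arrays and 6.34, 8.90 and 7.72 on the columnar arrays. They lay at opposite ends of the family's range. Of 39 serpins, 5 (12.8%) were called higher and 2 (5.13%) lower, and 2 or 3 higher when columnar array 2 or 3 or GFP+ array 1 or 3 was left out. Serpinb5, known as maspin, differed by 4.36 ± 0.24 and Serpinf1 by -3.32 ± 0.21. Of 60 plasminogen activation and serine protease genes, 7 (11.7%) were called higher and 5 (8.33%) lower. The higher count was 3 or 4 when columnar array 1 or GFP+ array 2 or 3 was left out, and the lower count was 3 when columnar array 2 or 3 was. The secreted protease Htra1 of this list differed by 4.71 ± 0.37.

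DNA replication genes were called higher in 15 of 63 cases (23.8%) and lower in 1, with a median of 0.65, 55 of 63 genes above 0 and 35 at an unadjusted p under 0.05 in limma. Mcm3, a subunit of the replicative helicase, read 8.45, 9.10 and 8.51 on the GFP+ arrays and 6.13, 7.13 and 7.11 on the columnar arrays, and Prim1, a primase, differed by 1.84 ± 0.22. The lowest GFP+ array of Mcm3 was above the highest columnar array. The number called higher was 7 when the first columnar array was left out and 9 when GFP+ array 2 or 3 was, and also 9 with the mean of all probe sets. Gmnn, an inhibitor of replication licensing, was the lower gene (-1.97 ± 0.31).

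No gene was called in 3 lists for protein synthesis. None of 50 cytosolic ribosomal protein genes was called in limma, with a median of 0.12, 44 of 50 above 0 and 7 at an unadjusted p under 0.05. None of 48 ribosome biogenesis genes was called either, with a median of 0.26 and 8 at an unadjusted p under 0.05. For 38 aminoacyl tRNA synthetases the count was also 0, the median -0.06, and 3 had an unadjusted p under 0.05. Of 78 cytosolic heat shock genes, 3 were called lower and none higher, and 15 had an unadjusted p under 0.05. An uncalled gene may still differ by less than the test resolves, since the median SE over all genes was 0.24.

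Some of the largest differences on the array belonged to none of these families. Vcam1, an adhesion molecule that holds leukocytes, and S1pr5, a sphingosine phosphate receptor, were under background on the columnar arrays and at least 31.4-fold and 22.1-fold higher in the GFP+ gate (adjusted p = 4.83e-05 and 1.19e-06). Trim29, a TRIM family protein of stratified epithelia, read 10.88, 11.16 and 10.77 on the GFP+ arrays and 4.68, 4.75 and 6.07 on the columnar arrays. Igfbp7, a secreted binder of insulin-like growth factors, differed by 5.27 ± 0.33, Flrt2, a guidance and adhesion protein, by 5.30 ± 0.29, and Dlc1, which switches off the small GTPase RhoA, by 5.53 ± 0.35. Among the largest decreases were Stc2, a secreted glycoprotein (-4.47 ± 0.26), Arfgef3 (-4.39 ± 0.26) and Pnliprp1, a protein related to pancreatic lipase (-4.29 ± 0.55). All were larger than the spread between arrays and kept their call without any single array.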

How the data were processed

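RNA of 9 sorted populations of tracheal epithelial cells was measured on Affymetrix mouse arrays, after extraction and amplification with kits named in the labels. The deposited values are log2 probe set signals that the authors made with RMA, per the submitters' processing notes. RMA fits all arrays together and shrinks differences near the background. Whether any probe set was filtered is not given in the sources used here. Of 45101 probe sets, 34945 had 1 gene symbol in the platform annotation, 932 had several, 9160 had none and 64 were controls. Symbols of 34741 were updated through a RefSeq gene table. Where several probe sets matched a gene, the brightest on average across the 9 arrays stood for it, which left 18193 genes.

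Gate means were fitted to all 9 arrays with limma 3.58.1 in R 4.3.3 (lmFit, eBayes), which pools the spread over gates, and p-values were adjusted over 18193 genes by the Benjamini-Hochberg method. All adjusted p-values are from limma. The fit was tested on simulated data. A gene was under background on an array where its signal was below 3.56, the 95th percentile of 80 olfactory and vomeronasal receptor probe sets. Where this held on all 3 arrays of a gate, the fold is a bound, from the brighter gate's mean and the higher of that level and the dim signal on each array. Differences are printed as fitted where only some arrays of a gate lay under that level. The number of arrays limits precision.

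The families, markers and named genes were chosen with earlier results of these data known, so no list's direction is independent evidence. Named genes are Krt5, Trp63, Ngfr and Foxj1, per family up to 4 called genes of largest change in each direction whose arrays do not overlap, and the 30 largest increases and decreases. The text names a selection of these 381 genes. Levels were compared within a probe set and never between genes. Hydin, Dnaaf4 and Tekt1 are named as the genes whose promoters held a motif, and a few others (among them Lama4, Ntn5 and Kif3b) because a count rests on them. Alternatives in scaling, samples, variance model, dim genes, probe sets, fold minimum and replicate block were run, and each array was left out in turn.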

Additional observations from a re-analysis of the deposited data

How the results depend on the processing

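The alternatives were chosen with earlier results of these data known. The numbers of genes called higher and lower were 985 and 1154 with each array centred on its median, 1029 and 1042 after a further quantile normalization, 1017 and 941 with only the 6 arrays of both gates, 1096 and 993 with a trended and robust variance, 1093 and 971 with dim genes left out, 959 and 909 with the mean of all probe sets of a gene, 1158 and 1016 with the probe set of largest variance, and 1331 and 1242 with no fold minimum. They fell to 445 and 438 where a log2 difference of at least 2 was required, by construction. Leaving out each array in turn gave 849 to 1082 and 830 to 988. With the replicate number as a block the counts were 1165 and 1028. The labels give the number but do not say whether same-numbered arrays were prepared together. Deviations of same-numbered GFP+ and columnar arrays correlated at 0.232, 0.04 and 0.188, and those of the other pairs at -0.267 to 0.086. The second columnar array correlated best with the third GFP+ array (0.086). Whether same-numbered arrays share an effect was not tested. The block moved 11 of the counts per list and direction by over 1.5 times. Of 369 called named genes, 293 kept their call without each array in turn and 309 in the other 8 alternatives. With the probe set of largest variance, Abcc10 turned from 1.31 to -1.12 and Sox5 from 1.07 to -0.12, and the cause was not tested. No other called named gene changed sign in any alternative. Alas2, named although not called (-0.21), was at 0.03 without columnar replicate 1. With 3 arrays per gate and a median SE of 0.30 among called genes, differences near 1 on the log2 scale cross the threshold most easily. Of the called named genes, 196 had several probe sets, and none had another probe set called in the opposite direction. In some of them another probe set had a small difference, as in Axl (-0.02), Col25a1 (-0.17), Col1a2 (-0.06), Cdh13 (-0.13), Arntl2 (0.09), Camk4 (0.09) and Abcb1b (0.21). The limits are those of bulk RNA and of a single probe set per gene.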

Other observations

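Several smaller families also held genes that differed. Among 25 tetraspanins, which organise membrane proteins into microdomains, 3 were called higher and 3 lower: Tspan15 and Tspan6 differed by 2.71 ± 0.23 and 1.70 ± 0.24, and Tspan33 and Tspan13 by -2.85 ± 0.34 and -1.46 ± 0.19. Gap junction proteins had 1 of 17 (5.88%) called each way, close to the shares of all genes (5.88% higher and 5.33% lower). These were Gjb5, known from stratified epithelia (1.61 ± 0.34), and Gjb1, typical of glandular epithelia (-1.91 ± 0.34). A second higher gap junction gene was called without GFP+ replicate 1. Among 39 cyclic nucleotide phosphodiesterases and adenylate cyclases, 2 were called higher and 2 lower (5.13% each), also close to the shares of all genes. The cGMP enzyme Pde5a differed by 2.51 ± 0.22 and the cAMP enzyme Pde3b by -2.05 ± 0.40. The brain-type creatine kinase Ckb differed by -1.79 ± 0.37, and Prodh, which starts the breakdown of proline, by 1.79 ± 0.37.

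Of 26 annexins and S100 proteins, 6 were called higher and 2 lower, the latter 1 without columnar replicate 3 or GFP+ array 2 or 3 and 4 with arrays centred. S100a8, a subunit of calprotectin, which neutrophils and stressed epithelia make, differed by 2.79 ± 0.37. S100a9, the other subunit, differed by 2.89 ± 0.60. Neither gene's arrays overlapped between the gates. The lectin-only arrays, which had the brightest leukocyte markers, averaged 8.62 ± 0.71 for S100a8 and 9.94 ± 0.15 for S100a9 (SD, n = 3 each), against 6.26 ± 0.43 and 7.72 ± 0.92 on the GFP+ arrays. S100a4 differed by 2.21 ± 0.34 and S100a1 by -1.31 ± 0.19. The part of leukocytes in these values was not tested.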
